A study of Homo sapiens with 24 samples.

Results

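The 8 genes DUSP2, DUSP4, DUSP5, DUSP6, SPRY1, SPRY2, SPRED1 and SPRED2 encode feedback inhibitors of mitogen-activated protein kinase (MAPK) signalling. They were taken by name from the MAPK phosphatases and the Sprouty and SPRED proteins, with earlier results of these data known. They make up 8 of the 19775 genes named on the arrays. They are not the whole of these families, and other members, such as DUSP1, DUSP10 and SPRY4, are given further below. All 8 were measured, by 17 probe sets that carry a single gene symbol, and no filter on low values was applied. The brightest probe set over the 24 arrays stands for each gene, and the others are given beside it. The cells were KARPAS-422, an established human line of diffuse large B cell lymphoma with the genotype EZH2 Y641N. They had received an inhibitor of EZH2, which the labels do not name, at 5 uM (called EZH2i), or the solvent DMSO. RNA came from EZH2i cultures after 1, 2, 3 and 6 days and from DMSO cultures after the same 1, 2, 3 and 6 days, in biological triplicate, which makes 8 groups of 3 arrays. The EZH2 mutation is shared by all groups, and a single cell line stands behind every value.

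In the MAPK cascade, a receptor such as the B cell receptor switches RAS to its active form, RAS activates RAF, RAF phosphorylates MEK, and MEK phosphorylates the kinase ERK. The proteins described here act against that chain at different points. DUSP2, DUSP4, DUSP5 and DUSP6 are dual-specificity phosphatases that take the activating phosphates off MAP kinases, whereas Sprouty (SPRY) and SPRED proteins act upstream, between the receptor and RAF. Several of these genes are themselves transcribed in response to ERK activity, which closes a negative feedback loop. EZH2, the enzyme of Polycomb repressive complex 2, places a repressive trimethyl mark on histone H3, and the Y641N form found in lymphomas raises that mark. The comparison asks how the levels of these transcripts differ when EZH2 is inhibited and how the difference develops with time.

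Promoter sequences are shown for 3 genes whose levels moved with treatment, DUSP6 and SPRED2, which rose, and DUSP2, which fell. A window of 250 bases before the gene start was read from RefSeq (GRCh38.p14), and 6 of the 8 genes had one. Each is written on the gene's strand, and capitals mark an E-box (CACGTG) or a GC box (GGGCGG), on either strand. The DUSP6 window is chr12:89352502-89352751, the SPRED2 window chr2:65432600-65432849 and the DUSP2 window chr2:96145441-96145690, all on the minus strand.
DUSP6: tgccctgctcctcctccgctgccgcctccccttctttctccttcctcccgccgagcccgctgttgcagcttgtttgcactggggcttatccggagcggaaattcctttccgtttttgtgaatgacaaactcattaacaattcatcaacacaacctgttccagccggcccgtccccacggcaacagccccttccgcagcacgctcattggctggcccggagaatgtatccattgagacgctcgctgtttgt
SPRED2: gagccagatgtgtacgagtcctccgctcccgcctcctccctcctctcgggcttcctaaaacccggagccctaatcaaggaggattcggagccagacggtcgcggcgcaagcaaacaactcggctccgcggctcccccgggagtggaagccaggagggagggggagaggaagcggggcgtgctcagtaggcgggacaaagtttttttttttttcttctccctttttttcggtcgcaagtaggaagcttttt
DUSP2: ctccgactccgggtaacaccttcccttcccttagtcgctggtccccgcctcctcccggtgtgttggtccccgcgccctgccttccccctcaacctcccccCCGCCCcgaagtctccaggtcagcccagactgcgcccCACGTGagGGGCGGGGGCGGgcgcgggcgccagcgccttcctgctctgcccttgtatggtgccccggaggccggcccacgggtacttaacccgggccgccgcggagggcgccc
The DUSP2 window holds 1 E-box and 3 GC boxes, and its GC content is 74.0% with 25 CpG dinucleotides. The windows of DUSP6 (57.2% GC, 16 CpG) and SPRED2 (58.8% GC, 19 CpG) hold neither motif. The ETS letters CCGGAAG and the CRE letters TGACGTCA were also searched on both strands and stand in none of the 3 windows. Among 35116 RefSeq windows of this length, 6.34% hold the E-box, 42.6% the GC box, 8.52% the ETS letters and 1.65% the CRE letters, with a median GC content of 58.0% and 11 CpG. GC boxes also stood in the windows of SPRY2 (2) and SPRED1 (1), genes that were not called at day 6. These matches describe the letters only, and a link between them and the direction of change was not tested.

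The deposited values are log2 expression levels, from 1.72 to 14.33, and a difference of 1 on this scale is a doubling. All levels and differences below are on this scale, and differences are EZH2i minus DMSO unless another direction is named. The arrays' medians lay between 4.96 and 5.03, and every array correlated with the others of its group at a mean r of 0.996 to 0.997, so that none stood apart. EZH2 itself was 0.64 lower in EZH2i cultures at day 6 (SE 0.12, adjusted p = 8.9e-05, limma). Of the B cell markers, 7 of 8 were measured, at a mean level of 10.70 in EZH2i and 10.41 in DMSO cultures at day 6, and 3 of them were higher. The 8 T and NK cell markers averaged 5.41 in EZH2i and 5.56 in DMSO cultures at day 6, with summed unlogged levels of 1781 to 2281 and 1998 to 2427, and CD3G among them was bright (10.95 over all arrays, difference -0.13, adjusted p = 0.64, limma). CD3D was the 1 T cell marker called at day 6, with a difference of -0.58, and 3 of 6 measured myeloid markers were called lower, and of 8 stromal, endothelial and epithelial markers 2 were lower and 1 higher. The part of these markers in the results was not tested. In bulk RNA of this kind, fewer cells with a transcript and less of it per cell cannot be told apart.

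By day 6 the 8 genes had moved in different directions. SPRED2, DUSP6, DUSP5 and DUSP4 were between 3.13-fold and 5.80-fold higher in EZH2i cultures, whereas DUSP2 was 2.08-fold lower. SPRY1 was called lower by 0.34 at a low level, and SPRY2 and SPRED1 were not called. A gene is called where its p from limma, adjusted over all 19775 genes by the method of Benjamini and Hochberg, is under 0.05. At day 6, 4 of the 8 genes were called higher and 2 lower, beside 18.5% of all genes called higher and 26.9% called lower. That background is broad, so that a call at day 6 by itself sets no gene apart. The sizes can be read against all genes as well, since 99.4% of genes had a smaller absolute difference than SPRED2 at day 6, and 97.7% to 97.9% had a smaller one than DUSP4, DUSP5 and DUSP6.

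The calls came in over the 4 days. At day 1 none of the 8 genes was called by limma (3 had an unadjusted p under 0.05), beside 0.475% of all genes called higher and 0.0101% called lower. With a replicate block within the day, SPRED2 was called higher at day 1 (adjusted p = 0.012, limma), beside 294 of all genes called higher and 7 lower. DUSP4 and SPRED2 were called higher at day 2, beside 3.57% of all genes called higher and 0.824% lower. At day 3 the genes called higher were DUSP4, DUSP5, DUSP6 and SPRED2, beside 8.64% of all genes, and none of the 8 was called lower, beside 7.65%. The median difference of the 8 genes was 0.23 at day 1, 0.15 at day 2, 0.25 at day 3 and 0.89 at day 6. The median over all genes was -0.11 at day 6 and between -0.04 and -0.01 at the other days. After centring each comparison on its median gene, 4505 genes were called higher and 3141 lower at day 6, against 3653 and 5324 as measured, and at day 3 the counts were 1996 and 1001, against 1709 and 1512. Relative to the median gene, the day 6 differences were 2.65 for SPRED2, 1.80 for DUSP6, 1.79 for DUSP5, 1.76 for DUSP4, -0.95 for DUSP2 and -0.24 for SPRY1, and the last of these was then not called (adjusted p = 0.12, limma).

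**Figure D1:**
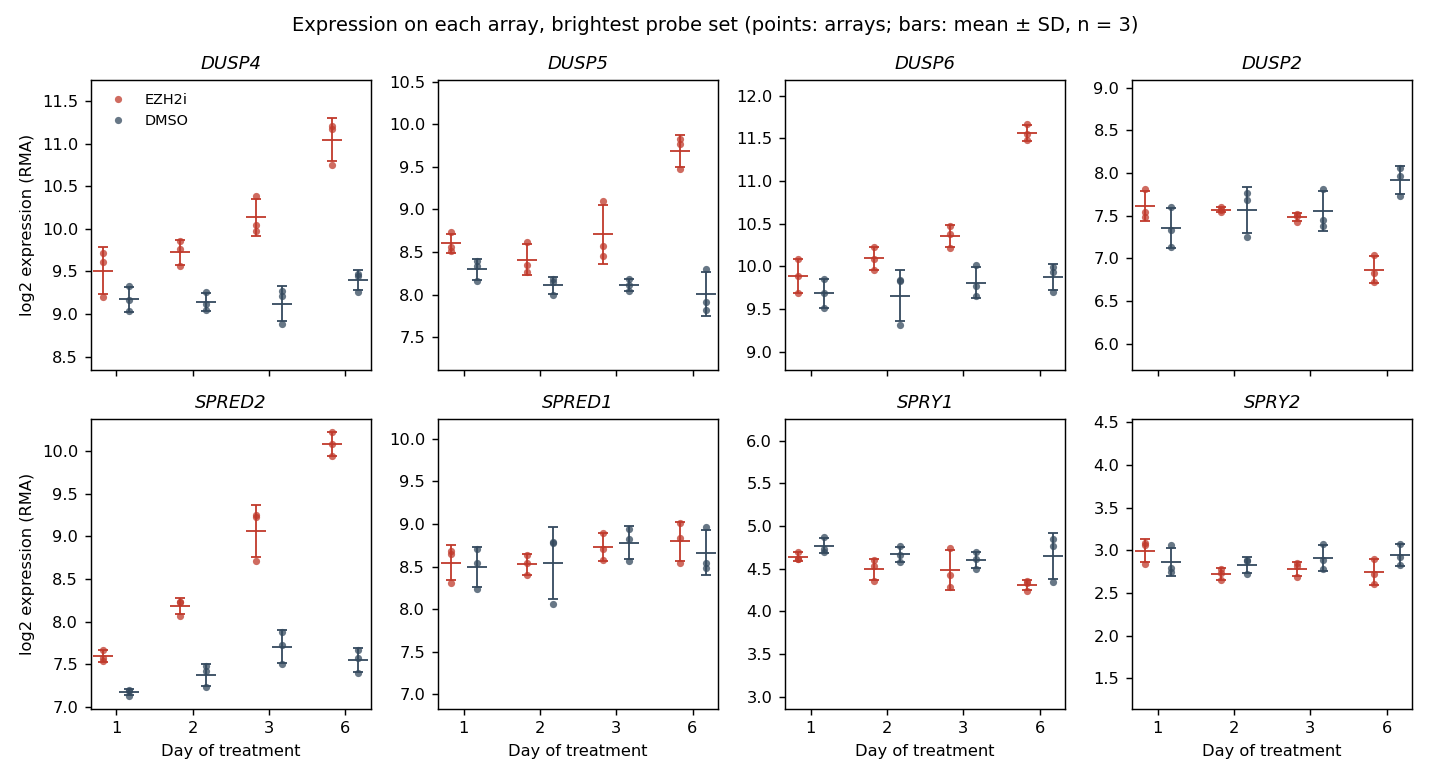
Log2 expression (y axis) of each gene by day of treatment (x axis), for EZH2i arrays (red, left of each pair) and DMSO arrays (grey, right of each pair). Points are single arrays and bars are means with SD over 3 arrays, and every panel spans the same height. SPRED2, DUSP4 and DUSP6 climb in the EZH2i arrays up to day 6, DUSP5 has EZH2i means of 8.41 to 8.71 up to day 3 and 9.69 at day 6, DUSP2 drops at day 6, and SPRED1, SPRY1 and SPRY2 differ between conditions by 0.34 or less on every day.

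DUSP6 is a cytoplasmic phosphatase with a strong preference for ERK. At day 6 its level was 11.48, 11.67 and 11.55 on the EZH2i arrays, against 9.94, 9.99 and 9.69 on the DMSO arrays. Every EZH2i array lay well above every DMSO array. The difference was 1.69 (SE 0.14, 95% interval 1.41 to 1.98), 3.23-fold, with an adjusted p of 1.3e-09 in limma. The earlier differences were 0.20 at day 1, 0.44 at day 2 and 0.55 at day 3, and only the last of these was called (adjusted p = 0.0075, limma). At day 2 the arrays of the 2 conditions did not overlap, with 10.23, 10.08 and 9.96 for EZH2i and 9.84, 9.82 and 9.31 for DMSO, but the adjusted p was 0.080 (0.046 after centring on the median gene). In order of level, EZH2i day 6 (11.57 ± 0.09, SD, n = 3) stood alone at the top, followed by EZH2i day 3 (10.35 ± 0.13), and from there down each group overlapped the next. All 3 probe sets of DUSP6 gave day 6 differences of 1.69, 1.64 and 1.80.

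DUSP5 is a nuclear phosphatase specific for ERK. Its single probe set read 9.77, 9.47 and 9.82 on the EZH2i arrays at day 6, against 8.30, 7.82 and 7.91 on the DMSO arrays. The arrays did not overlap, and the difference was 1.68 (SE 0.15, 95% interval 1.37 to 1.98), 3.20-fold, with an adjusted p of 3.3e-09 in limma. Up to day 2 the difference stayed at 0.30 (adjusted p = 0.82 at day 1 and 0.30 at day 2, limma). At day 3 the EZH2i arrays read 8.45, 8.57 and 9.10 and the DMSO arrays 8.04, 8.19 and 8.11. The third EZH2i array was the high one, and the call at that day (difference 0.59, adjusted p = 0.0059, limma) was lost without it (0.40, adjusted p = 0.059). Apart from EZH2i day 6, each of the 8 groups overlapped its neighbour in the order of DUSP5 levels, which ran from 9.69 ± 0.19 in EZH2i day 6 to 8.01 ± 0.26 in DMSO day 6 (SD, n = 3).

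DUSP4 is a nuclear phosphatase that acts on ERK, JNK and p38. Its levels at day 6 were 10.75, 11.21 and 11.17 on the EZH2i arrays, against 9.48, 9.27 and 9.45 on the DMSO arrays. At day 3 they were 10.04, 9.98 and 10.38 on the EZH2i arrays and 9.21, 8.89 and 9.27 on the DMSO arrays. The conditions were apart at both days and at day 2, where the EZH2i arrays read 9.57, 9.76 and 9.86 and the DMSO arrays 9.05, 9.11 and 9.26, and they overlapped at day 1. The differences were 0.33 at day 1 (adjusted p = 0.74, limma), 0.59 at day 2 (0.020), 1.01 at day 3 (3.3e-05) and 1.65 at day 6 (SE 0.15, 4.6e-09), the last being 3.13-fold. The day 2 call was lost without DMSO replicate 1 (adjusted p = 0.087) or 2 (0.070), and without EZH2i replicate 2 (0.078) or 3 (0.11). In the order of groups, EZH2i day 6 (11.04 ± 0.25), day 3 (10.13 ± 0.22) and day 2 (9.73 ± 0.15) were apart from one another, and EZH2i day 1 (9.51 ± 0.28) overlapped both day 2 above it and DMSO day 6 (9.40 ± 0.12, SD, n = 3) below it. The other probe sets gave 1.10 and 1.44 at day 6, and both were called.

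DUSP2, also known as PAC1, is a nuclear phosphatase found mainly in activated blood cells, and it went the other way. On the EZH2i arrays it read 7.04, 6.83 and 6.73 at day 6, against 8.06, 7.96 and 7.73 on the DMSO arrays. All EZH2i arrays lay below all DMSO arrays, with a difference of -1.05 (SE 0.14, 95% interval -1.35 to -0.76) and an adjusted p of 1.9e-06 in limma. No earlier day was called, with differences of 0.26, 0.00 and -0.07 at days 1, 2 and 3 and arrays that overlapped on each of them. Day 3 levels, for example, were 7.43, 7.50 and 7.52 in EZH2i cultures and 7.82, 7.45 and 7.38 in DMSO cultures. In the order of groups, DMSO day 6 (7.92 ± 0.17) was highest and EZH2i day 6 (6.86 ± 0.16, SD, n = 3) lowest, and only the step down to EZH2i day 6 was free of overlap. DUSP2 has 1 probe set on the array, so no second reading of the fall was available.

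SPRED2 binds the RAS-inactivating protein neurofibromin and keeps RAS from activating RAF, and it showed the highest difference of the 8 genes. It read 10.23, 9.95 and 10.08 on the EZH2i arrays at day 6, against 7.67, 7.40 and 7.57 on the DMSO arrays. At day 3 the values were 8.71, 9.23 and 9.25 in EZH2i and 7.50, 7.88 and 7.73 in DMSO cultures, and at day 2 they were 8.07, 8.23 and 8.24 in EZH2i and 7.42, 7.48 and 7.24 in DMSO cultures. Day 1 gave 7.57, 7.67 and 7.54 for EZH2i and 7.19, 7.20 and 7.13 for DMSO. The arrays of the 2 conditions were apart on all 4 days. The difference was 0.42 at day 1 (adjusted p = 0.19, limma), 0.80 at day 2 (0.00024), 1.36 at day 3 (9.2e-08) and 2.54 at day 6 (SE 0.12, 6.8e-13), the last being 5.80-fold. Blocking on the replicate number within the day, which pairs the samples at day 1, brought the day 1 difference to an adjusted p of 0.012 in limma. In the order of groups, EZH2i day 6 (10.08 ± 0.14), day 3 (9.06 ± 0.31) and day 2 (8.18 ± 0.10) were apart from one another and from all DMSO groups, while EZH2i day 1 (7.59 ± 0.07, SD, n = 3) overlapped DMSO day 3 and day 6.

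The SPRED2 result rests on 1 of the gene's 3 probe sets. The set 212458_at, with a mean of 8.09 over all arrays, gave the values above, whereas 212466_at (mean 4.44) and 214026_s_at (mean 3.39) gave -0.09 and -0.07 at day 6 and were not called. Those readings lie below the medians of all arrays, and no detection calls accompany the values. With the mean of the 3 probe sets in place of the brightest, the day 6 difference was 0.79 and still called, and the day 2 difference was 0.18 and not called (adjusted p = 0.17, limma).

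SPRED1, which also brings neurofibromin to the membrane, read well above the array medians but was not called. It read 9.01, 8.55 and 8.83 on the EZH2i arrays at day 6, against 8.96, 8.54 and 8.48 on the DMSO arrays. The arrays overlapped, and the difference was 0.13, with a 95% interval of -0.24 to 0.51 (adjusted p = 0.57, limma). Differences at the earlier days were 0.05, -0.02 and -0.05, and group means ran from 8.49 to 8.79 with every neighbour overlapping. Its probe sets disagreed at day 6, where 235074_at gave 0.37 and was called (adjusted p = 0.035, limma over all probe sets) and 244439_at gave -0.32 (0.072).

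The Sprouty genes, whose proteins block the step from receptors to RAS and RAF, gave low readings on their probe sets. SPRY1 read 4.35, 4.33 and 4.24 on the EZH2i arrays at day 6, against 4.35, 4.76 and 4.85 on the DMSO arrays. One DMSO array lay level with the highest EZH2i array, so the groups overlapped, although the difference of -0.34 (SE 0.12) had an adjusted p of 0.019 in limma. That call was lost without DMSO replicate 2 (adjusted p = 0.082) or 3 (0.12) and without EZH2i replicate 3 (0.065). The other SPRY1 probe set gave 0.01 at day 6. SPRY2 read 2.90, 2.60 and 2.73 on the EZH2i arrays at day 6, against 2.92, 3.08 and 2.83 on the DMSO arrays. The SPRY2 groups overlapped, and the difference of -0.20 (95% interval -0.41 to 0.01) was not called (adjusted p = 0.12, limma). Neither gene was called at days 1 to 3, and all 8 groups of each overlapped their neighbours, with means of 4.31 to 4.77 for SPRY1 and 2.72 to 3.00 for SPRY2.

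**Figure D2:**
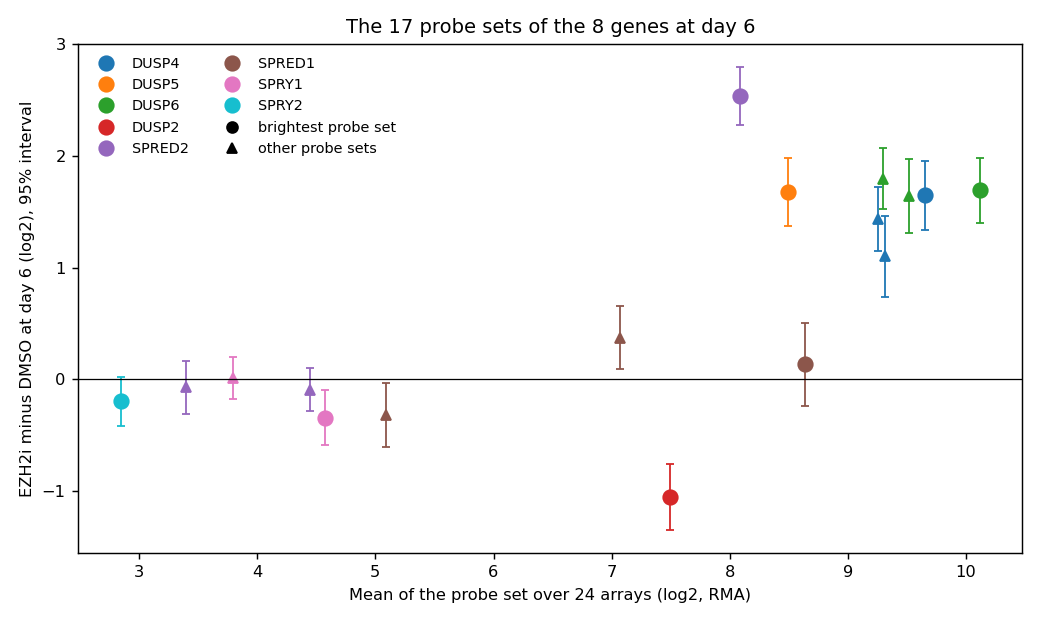
Difference between EZH2i and DMSO cultures at day 6 (y axis, log2, with 95% intervals) against the mean level of the probe set over 24 arrays (x axis, log2), for the 17 probe sets of the 8 genes. Circles are the brightest probe set of a gene and triangles the others. The sets of DUSP4 and DUSP6 lie together between 1.10 and 1.80, while the SPRED2 sets are split between 2.54 for the bright one and -0.09 and -0.07 for the dim ones.

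The growth of the differences with time was tested directly, as the effect at day 6 minus the effect at day 1. SPRED2 had gained 2.12 (SE 0.17, adjusted p = 1.2e-08, limma), DUSP6 1.49 (0.19, 4.2e-06), DUSP5 1.37 (0.21, 2.2e-05) and DUSP4 1.31 (0.21, 4.0e-05). For DUSP2 the change was -1.31 (SE 0.20, adjusted p = 2.6e-05, limma). These 4 gains and 1 loss stood beside 12.3% of all genes called higher and 14.4% called lower in the same test. SPRY1 (-0.22), SPRY2 (-0.33) and SPRED1 (0.08) were not called.

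The last step, from day 3 to day 6, was tested after the values had been seen. The effect grew by 1.18 for SPRED2 (adjusted p = 9.0e-05, limma), 1.15 for DUSP6 (0.00035) and 1.08 for DUSP5 (0.00097), and it changed by -0.99 for DUSP2 (0.0016). DUSP4 gained 0.64 with an adjusted p of 0.046, and this call was lost with the mean of its probe sets (adjusted p = 0.18), in a fit limited to the 4 groups compared (0.070), with either of its other probe sets alone and without any single array of both days (0.056 to 0.11) other than DMSO day 3 replicate 2, EZH2i day 3 replicate 3 and EZH2i day 6 replicate 1. With these, 4 of the genes were called higher and 1 lower, beside 5.98% and 6.53% of all genes.

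**Figure D3:**
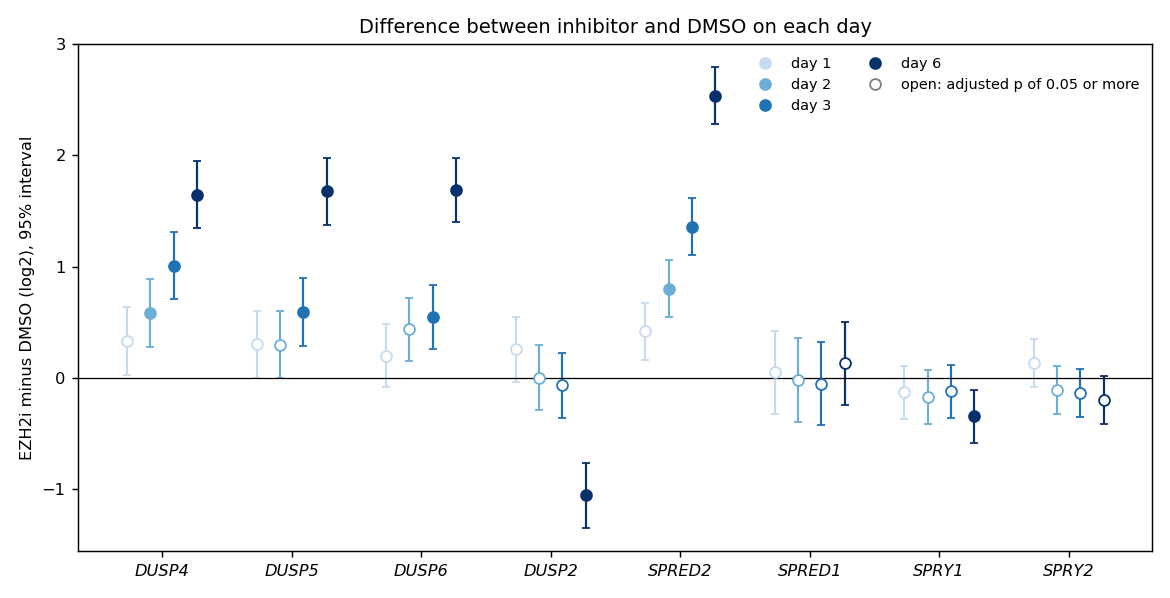
Difference between EZH2i and DMSO cultures (y axis, log2) for each gene at days 1, 2, 3 and 6 (light to dark), with 95% intervals from the fit, 3 arrays per group. Filled points had an adjusted p under 0.05. SPRED2 reaches 2.54 and DUSP4, DUSP5 and DUSP6 lie between 1.65 and 1.69 at day 6, against -1.05 for DUSP2.

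Within the EZH2i cultures, day 6 was set against day 1. SPRED2 was 2.49 higher, DUSP6 1.68, DUSP4 1.53 and DUSP5 1.09, while DUSP2 fell by 0.75 and SPRY1 by 0.33, and these 4 higher and 2 lower calls stood beside 16.9% and 24% of all genes. The SPRY1 call was lost in 4 of 14 alternatives other than single probe sets (adjusted p up to 0.12, limma). Among them were the fits without EZH2i day 1 replicate 1 (adjusted p = 0.080) or day 6 replicate 3 (0.081). Its difference ran from -0.36 to -0.13 over the 14. Within the DMSO cultures none of the 8 genes was called between day 6 and day 1 (limma, 2 at an unadjusted p under 0.05), beside 0.238% of all genes called higher and 0.0506% called lower. Those 2 were DUSP2, with a difference of 0.56 (SE 0.14, adjusted p = 0.11), and SPRED2, with 0.37 (SE 0.12, adjusted p = 0.31). For DUSP2 the DMSO arrays read 8.06, 7.96 and 7.73 at day 6, against 7.33, 7.61 and 7.14 at day 1, without overlap. The day 6 difference of -1.05 for DUSP2 is the day 1 difference of 0.26 plus the change of -0.75 in EZH2i cultures, less the change of 0.56 in DMSO cultures.

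Across the 24 arrays the 4 rising genes moved together. Pearson's r was 0.90 between DUSP4 and DUSP5 and between DUSP4 and DUSP6, 0.89 between DUSP5 and DUSP6, 0.88 between DUSP5 and SPRED2, and 0.93 between SPRED2 and either DUSP4 or DUSP6. DUSP2 ran against them, with r between -0.67 and -0.61. The points share the same 8 groups, so these values describe the time course and treatment as a whole. The genes most like SPRED2 in pattern were HLA-E (r = 0.99), VNN2 (0.99) and RIN2 (0.98). MLLT3, GADD45A and EXT1 were most like DUSP4 (each 0.98), and ARRDC3, CCDC146 and PLEKHG1 most like DUSP6 (each 0.97). The nearest to DUSP5 were TNFSF15, SPPL2A and POLI (each 0.95), and the nearest to DUSP2 were MTFR1 (0.89), LRP8 (0.88) and MCM3AP-AS1 (0.87). SPRY1 was nearest to LILRB3, ACHE and MYO5A (each 0.80).

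Other phosphatases of the same families did not move one way. Of 6 further MAPK phosphatases, 1 was called higher and 2 lower at day 6. DUSP10, which prefers p38 and JNK over ERK, read 6.82, 6.52 and 6.89 on the EZH2i arrays, against 5.19, 4.72 and 4.65 on the DMSO arrays. The arrays did not overlap, and the difference was 1.89 (SE 0.15, adjusted p = 1.1e-09, limma), with 0.90 on a second probe set. DUSP1, an immediate early gene and the founding member of the family, read 6.65, 6.90 and 6.96 on the EZH2i arrays, against 8.12, 7.93 and 7.57 on the DMSO arrays. It fell by 1.04 (SE 0.12), with -0.26 and -0.49 on its other probe sets. DUSP7, a cytoplasmic relative of DUSP6, fell by 0.80 (SE 0.17), with -0.46 on another. The 10 atypical dual-specificity phosphatases split evenly, with 3 called higher and 3 lower, and examples were DUSP22 (1.16), DUSP18 (1.03), DUSP12 (-0.64) and DUSP26 (-0.28). A second DUSP18 probe set gave 0.19. Of the remaining Sprouty and SPRED genes, SPRY4 was lower by 0.48 and SPRY3 and SPRED3 were not called.

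Upstream in the cascade, 20 of 25 listed RAS, RAF, MEK and ERK genes and their adaptors were measured, and 6 were called higher and 7 lower at day 6. GAB2, an adaptor that links receptors to RAS, read 8.0, 8.06 and 8.53 on the EZH2i arrays, against 6.44, 6.30 and 6.43 on the DMSO arrays. RASGRP3, an exchange factor that activates RAS in B cells, read 9.26, 8.84 and 8.81 on the EZH2i arrays, against 7.33, 7.25 and 7.51 on the DMSO arrays. Neither gene had overlapping arrays, and the differences were 1.81 (SE 0.16) and 1.61 (SE 0.22), although a second RASGRP3 probe set gave 0.17. The RAS relatives split, with RRAS higher by 1.30 and RRAS2 changed by -1.13, and most of their readings lay near or below the array medians. RRAS read 4.59, 4.92 and 5.77 on the EZH2i arrays, against 3.62, 3.85 and 3.92 on the DMSO arrays. For RRAS2 the values were 4.31, 4.14 and 3.74 in EZH2i and 5.04, 5.13 and 5.40 in DMSO cultures. Of 18 genes for RAS-inactivating proteins and other inhibitors of the cascade, 15 were measured, with 3 called higher and 3 lower. IL17RD, also known as SEF and an inhibitor of receptor to ERK signalling, was higher by 1.41 at day 6 and already by 1.29 at day 2, on 1 of its probe sets (0.03 on another at day 6). Its level was low, at 5.32, 5.32 and 4.93 on the EZH2i arrays at day 6, against 3.73, 3.78 and 3.83 on the DMSO arrays. CBLB, a ubiquitin ligase, was higher by 1.01, with 1.31 and -0.13 on its other probe sets. PEA15, which holds ERK in the cytoplasm, was higher by 0.70, and ERF, a transcriptional repressor phosphorylated by ERK, was changed by -0.74.

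Most genes of a list of transcripts that respond to ERK were lower. That list leaves out the 8 feedback genes, although several of them are also transcribed in response to ERK. Of those 8, 4 were called higher and 2 lower at day 6, with DUSP4, DUSP5 and DUSP6 higher by 1.65 to 1.69. ERK activity itself was not measured. Of 16 listed, 15 were measured, and at day 6, 10 were called lower and 1 higher, with a median difference of -0.48 beside -0.11 for all genes. At day 3 the count was 5 lower and 1 higher, beside 7.65% of all genes called lower and 8.64% higher. Without DMSO replicate 1 of that day it was 9 lower and 1 higher, while the counts over all genes were 1153 lower and 1458 higher. ETV5, an ETS family transcription factor, read 7.35, 7.48 and 7.65 on the EZH2i arrays at day 6, against 9.28, 9.12 and 8.86 on the DMSO arrays. The groups were far apart, with a difference of -1.59 (SE 0.22, adjusted p = 4.3e-06, limma) and -1.63 to -0.30 on 4 other probe sets, and its relative ETV4 changed by -1.42 (SE 0.20). EGR3, an immediate early transcription factor, changed by -1.46 (SE 0.36, adjusted p = 0.0023, limma). It read 3.88, 3.96 and 4.22 on the EZH2i arrays at day 6, against 6.64, 4.97 and 4.84 on the DMSO arrays. DMSO replicate 1 thus lay far above the other arrays, which read near or below the array medians. The same replicate was the highest DMSO array for FOS (6.73, against 5.34 and 5.56), FOSB (5.75, against 5.23 and 5.27) and EGR1 (9.91, against 8.71 and 9.09). Readings of CCND1, EPHA2, EPHA4 and FOSL1 also lay near or below the array medians, at 4.97 or less on every day 6 array. EGR1 changed by -1.51 (SE 0.60, adjusted p = 0.043, limma), a call that was lost without any single array of that day other than DMSO replicate 2 (0.056 to 0.16) and after centring on the median gene (0.069). After that centring, 7 of the 15 genes were called lower and 1 higher, beside 3141 of all genes called lower and 4505 higher. SPRY4 stands in this list as well as in the Sprouty list. PHLDA1, named here after its value was seen as the single member called higher, differed by 0.86 (SE 0.11).

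In the p38 and JNK branch, 8 of 11 listed genes were measured, with 2 called higher and 3 lower at day 6. MAPK9, which encodes JNK2, changed by -0.71, with -0.77 and -0.09 on its other probe sets, and MAPK10, which encodes JNK3, changed by -0.37. MAPK8, which encodes JNK1, was higher by 0.44, and MAP2K4, a kinase that activates JNK, by 0.39. Of the other 4 MAPK8 probe sets, 2 gave 0.45 and 0.35 and were called, and 2 gave 0.08 and 0.11 and were not, and the other MAP2K4 set gave 0.13 and was not called. The MAP2K4 call was lost without DMSO replicate 1 or 2 or EZH2i replicate 2 or 3 (adjusted p = 0.054 to 0.12), and the MAPK10 call without DMSO replicate 1 (0.056) or EZH2i replicate 3 (0.051). Without DMSO replicate 1 or without EZH2i replicate 3, 1 gene of this branch was called higher and 2 lower. Over all genes, 3342 were called higher and 4795 lower in the first of these fits, and 3334 higher and 4633 lower in the second. The counts in these lists from the main fit stand beside 18.5% of all genes called higher and 26.9% called lower at day 6. Members were chosen with earlier results of these data known, so the counts describe the lists and no test was made on them.

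**Figure D4:**
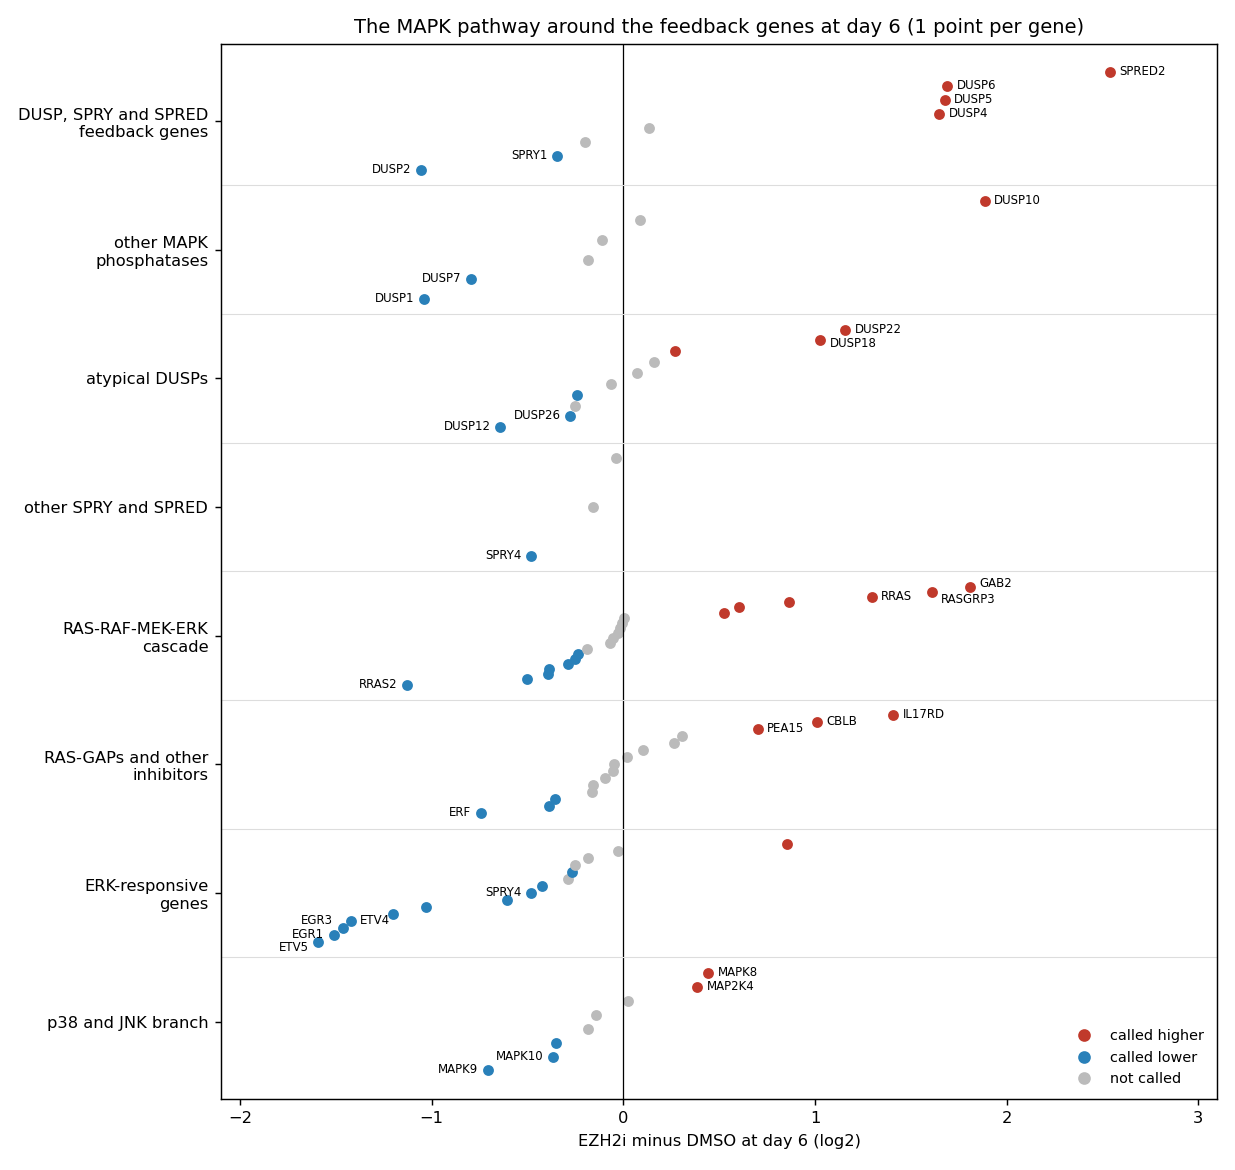
Difference between EZH2i and DMSO cultures at day 6 (x axis, log2) for each measured gene of the 8 lists, by the brightest probe set; rows group the genes by list and height within a row only separates the points. Red points were called higher, blue points lower and grey points neither. DUSP4, DUSP5, DUSP6, SPRED2 and DUSP10 lie to the right, while DUSP1, DUSP2 and most genes of the ERK-responsive list, ETV5 at -1.59 the farthest, lie to the left.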

How the data were processed

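Biotin-labelled RNA from Trizol extracts was measured on Affymetrix U133 Plus 2 arrays. The deposited log2 values of 54613 probe sets were made by the authors with RMA under R 2.10.1, as the submitters' processing notes say. No source used here gives the log base, and log2 was taken from the range of the values. RMA equalises the arrays' distributions, so a change common to all transcripts would not show. No counts underlie these values, and the number of arrays limits the precision.

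Gene names came from the platform's table, updated by Entrez ID for 41037 of the 41091 probe sets with 1 symbol. A further 1801 with several symbols were left out, and 11721 have no gene named here. Differences were fitted with limma 3.58.1 in R 4.3.3 (8 group coefficients, eBayes, 16 residual and 5.22 prior degrees of freedom) over the brightest probe set of each gene. The fit was tested on simulated data whose noise was independent between arrays, so that test did not cover a structure by replicate number. The smallest p of an exact test with 3 arrays a group is 0.1, so p-values come from limma.

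The 8 genes and all lists were chosen with earlier results of these data known. Named are the 8 genes, up to 4 called members of each other list with the largest absolute day 6 differences, and the 3 genes most like each called gene by Pearson's r. Alternatives were a mean over probe sets, other scalings, a filter on dim genes, replicate blocks, array weights, a trend in eBayes, a limited fit, single probe sets and leaving out each array.

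For EZH2i and DMSO arrays that share a replicate number, deviations from the group means had r of 0.19 to 0.55 at days 1, 3 and 6. At day 2 the r was 0.36 for number 1, 0.04 for number 2 and 0.43 for number 3. Over all pairs of arrays from different groups, the median r was 0.24 with the same number and -0.13 with different numbers. On average, 21 of the 24 arrays correlated best with arrays of their own number. The numbers were taken to pair the samples at days 1, 3 and 6, from the data and not from the labels. Day 2 was not counted because of number 2, although its numbers 1 and 3 lay in the range of the other days. The main fit holds no block for these numbers, and blocks were run as alternatives. List members without a probe set of their own symbol were not analysed here.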

Additional observations from a re-analysis of the deposited data

Results flagged for a closer look

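The effect of the inhibitor differed between days for 5 of the 8 genes, by limma's test of the difference between the effects. From day 1 to day 6 the effect changed by 2.12 for SPRED2 (adjusted p = 1.2e-08, limma), 1.49 for DUSP6 (4.2e-06), 1.37 for DUSP5 (2.2e-05) and 1.31 for DUSP4 (4.0e-05), and by -1.31 for DUSP2 (2.6e-05), beside 12.3% of all genes called higher and 14.4% lower. From day 3 to day 6 it changed by 1.18 for SPRED2 (adjusted p = 9.0e-05, limma), 1.15 for DUSP6 (0.00035), 1.08 for DUSP5 (0.00097) and 0.64 for DUSP4 (0.046), and by -0.99 for DUSP2 (0.0016), beside 5.98% of all genes called higher and 6.53% lower. The DUSP4 call from day 3 to day 6 was lost with the mean of its probe sets (adjusted p = 0.18), in a fit limited to the groups compared (0.070) and without most single arrays (0.056 to 0.11).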

How the results depend on the processing

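The day 6 calls of DUSP2, DUSP4, DUSP5, DUSP6 and SPRED2 held under every scaling, block, filter, weight and leave-one-out alternative run, with the 2 dim SPRED2 probe sets as the exception. Without single arrays, 5 to 7 of the 8 genes were called at day 6 and 1 to 2 at day 2. Of all 19775 genes, the same fits called 7816 to 8431 at day 6 and 555 to 720 at day 2. At day 2, 1 gene was called with the mean of the probe sets. DUSP6 at day 2 was called with a replicate block (adjusted p = 0.018), a replicate block within day (0.021) and after centring on the median gene (0.046), all by limma. With the replicate block within day, 1 gene was called at day 1, and with the replicate block 1 between DMSO day 6 and day 1, DUSP2 (adjusted p = 0.021). Other calls of the 8 genes did not change with the blocks, and a block within day could not be fitted for comparisons between days within an arm. SPRY2 at day 6 was called without EZH2i replicate 1 (adjusted p = 0.049), its effect at day 6 against day 1 without DMSO day 1 replicate 2 (0.035) or EZH2i day 6 replicate 1 (0.047), and its change within EZH2i without day 1 or day 6 replicate 1 (0.024 and 0.022), and SPRY1 was not called in a fit limited to its groups (0.060). SPRED1 between EZH2i day 6 and day 1 was called with the mean of its probe sets (0.015).

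Directions turned for values near 0 or on single probe sets. At day 2 SPRED1 had 0.0046 with array medians subtracted and 0.026 after centring on the median gene. Its probe set 244439_at gave -0.012, 0.031 and -0.32 at days 1, 2 and 6, and -0.31 and -0.0091 for day 6 against day 1 and day 3, and 235074_at gave 0.024 at day 3. For SPRED2, 212466_at gave -0.14, -0.17 and -0.093 at days 1, 2 and 6, -0.11 for day 6 against day 3, -0.043 within EZH2i and -0.092 within DMSO, and 214026_s_at gave -0.10 and -0.074 at days 2 and 6 and -0.098 and -0.18 for day 6 against day 1 and day 3. SPRY1 on 212558_at had 0.11 and 0.013 at days 2 and 6, 0.080 and 0.087 for day 6 against day 1 and day 3, and 0.076 within EZH2i. DUSP2 at day 2 had -0.037 after quantile normalization and -0.081 with array weights. Leaving out arrays in turn gave -0.076 to 0.17 for SPRED1 at day 1, -0.15 to 0.10 for DUSP2 at day 2, -0.26 to 0.11 for SPRED1 at day 2, -0.15 to 0.067 for DUSP2 at day 3, -0.16 to 0.031 for SPRED1 at day 3, -0.042 to 0.23 for SPRED1 for day 6 against day 1, -0.15 to 0.0041 for SPRY2 for day 6 against day 3 and -0.22 to 0.036 for SPRY1 within DMSO. The causes were not tested.

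Counts over all genes moved with the fit: at day 1, 96 genes were called, against 32 to 301 under the alternatives, and at day 2 there were 869, against 555 to 1866. At day 3 there were 3221, against 2320 to 4853, and at day 6 there were 8977, against 7476 to 10157. For the effect at day 6 against that at day 3 there were 2474, against 1871 to 3977, and between DMSO day 6 and day 1 there were 57, against 23 to 199. Of 448 list counts under alternatives, 396 lay within 1.5 times the count given. At day 1 the count given was 0 for every list, and an unchanged 0 was taken as within that range, so the 396 say less about the later days.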
